A study of Danio rerio with 12 samples.

Results

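The livers of female zebrafish were compared with those of males in the unexposed arm of a bisphenol AF (BPAF) study. Both groups were wild-type (WT) adults of the TU strain, 4 months old, held for 28 days with the solvent DMSO at 0.0001% and no BPAF, in water at 28 °C under 14 h light and 10 h dark per day. There were 3 female DMSO and 3 male DMSO libraries among the 12 of the series, and the remaining female and male libraries came from fish given BPAF at 10 µg/L. The labels do not say whether a library was 1 fish or a pool, so every p-value rests on the spread among these libraries alone, and that spread may be technical. Values are TPM, a transcript abundance unit that relates each gene to its length and to the library total, and sequencing depth is unknown. Genes were included where TPM reached 1 in at least 3 of the 6 control libraries, which kept 9171 of 32520 listed genes. Spearman correlations across genes were 0.835 to 0.848 between female libraries, 0.83 to 0.871 between male libraries and 0.609 to 0.784 between the sexes, and no 2 libraries were identical.

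In egg-laying vertebrates, estrogen from the ovary acts on the liver through estrogen receptors and switches on vitellogenin, the yolk precursor. The liver secretes vitellogenin into the blood, and growing oocytes take it up. The liver of a laying female therefore makes a large amount of exported protein and lipid, besides the plasma proteins, lipoproteins and detoxifying enzymes that livers of both sexes make.

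Vitellogenin transcripts took a large share of the female liver transcriptome and were near absent in males. Together the 7 vitellogenin genes held 23.2%, 22.9% and 22.5% of summed TPM in females 1, 2 and 3, against 0.00253%, 0.0108% and 0.0024% in males 1, 2 and 3. No female came near any male. The means were 22.8% ± 0.337 in females, against 0.00523% ± 0.0048 in males (SD, n = 3 per sex; 2-sided exact permutation test, p = 0.1, the smallest that 20 splits allow). The cytosolic ribosomal protein genes, which encode the protein part of the ribosome, held 34.9% ± 1.37 in females and 18.5% ± 2.08 in males. Translation factors, which start and extend protein chains on the ribosome, held 3.59% ± 0.646 in females and 1.72% ± 0.186 in males. A single gene without a descriptive name, CABZ01042594.1, held 2.39% ± 0.423 in females and 0.000467% ± 0.000517 in males. For these 3 classes too, every female was above every male, and the exact permutation p was 0.1 (n = 3 per sex).

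The shares of other liver products were smaller in females. Apolipoprotein and lipoprotein assembly genes, which package lipid for the blood, held 5.69% ± 0.488 in females and 19.1% ± 4.36 in males. The liver fatty acid binding protein gene fabp10a held 2.11% ± 0.118 in females and 6.74% ± 1.1 in males, and genes encoded in the mitochondrial genome held 4.81% ± 0.538 in females and 9.37% ± 1.12 in males. Plasma protein genes held 4.47% ± 0.672 in females and 9.78% ± 0.659 in males. In each of these classes the groups did not overlap, and each exact permutation p was 0.1 (n = 3 each). Shares sum to the whole, so the classes do not vary independently of each other. With the scaling described below, limma called 1 of 13 mitochondrially encoded genes, mt-atp8, and it was higher in females. The median log2 difference of the 13 was -0.39, against -0.09 over all tested genes.

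**Figure D1:**
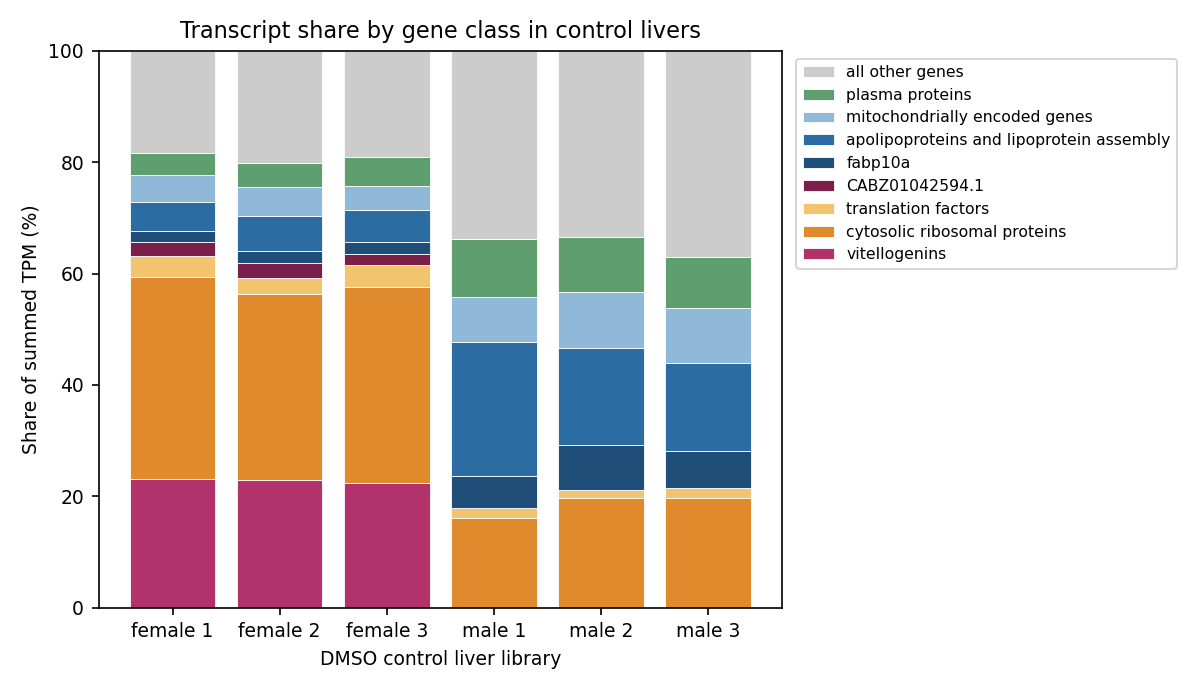
Share of summed TPM (%) by gene class in each DMSO control liver library, females left and males right. Vitellogenins take 22.5% to 23.2% in females and are too small to see in males, and ribosomal proteins take 34.9% on average in females and 18.5% in males.

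For tests of single genes, TPM were therefore divided by trimmed-mean factors, which set the bulk of genes level between libraries. The factors ran from 0.737 to 0.848 in females and from 1.06 to 1.42 in males. With this scaling the median log2 difference (female minus male, on log2(scaled TPM + 1)) of all tested genes was -0.09, against -0.57 for TPM as deposited. All fold changes below use this scale, which understates the change of low genes. Calls were made with limma at an adjusted p (Benjamini-Hochberg over all tested genes) under 0.05. Of the 9171 genes, 860 (9.38%) were called, 395 (4.31%) higher and 465 (5.07%) lower in females, and 2696 (29.4%) had an unadjusted p under 0.05. The log2 difference was at least 1 in size for 361 of the higher and 417 of the lower genes. It was at least 3 in size for 49 and 19, and at least 5 for 18 and 4. With TPM as deposited 28.6% of tested genes were called, 277 higher (3.02%) and 2347 lower (25.6%), with 244 of the 395 and all 465 of the scaled calls shared. Quantile normalization gave 388 higher (4.23%) and 386 lower (4.21%). In deposited TPM, 357 of the 395 higher and all 465 lower genes did not overlap between the sexes, against 4.82% of all tested genes without overlap and higher and 43.4% without overlap and lower. On the scaled values tested, none of the 395 and 465 overlapped, against 15.3% of all tested genes higher without overlap and 19.7% lower. Lack of overlap is therefore no further support for a call. Fewer genes passed with any 1 library left out: 130, 467 and 396 without females 1, 2 and 3, and 241, 140 and 421 without males 1, 2 and 3. The filter then needed 3 of 5 libraries, so genes of 1 sex could drop out untested. Without female 1, 47 of 8907 tested genes were higher and 83 lower. These are the background for the list counts without female 1 given below.

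**Figure D2:**
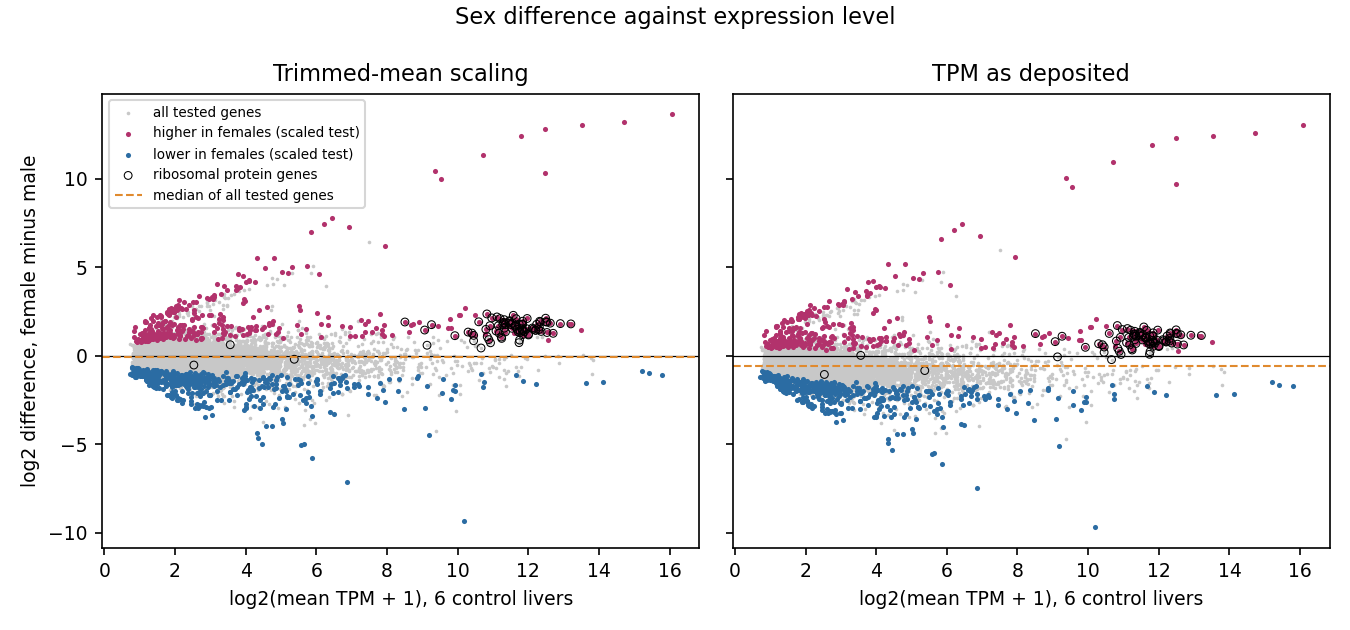
Log2 difference (female minus male) against log2(mean TPM + 1) over the 6 control libraries for each tested gene, with trimmed-mean scaling (left) and TPM as deposited (right). The dashed line is the median of all tested genes, at -0.09 with scaling and -0.57 without, and the ribosomal protein genes (open circles) lie above it at high levels.

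Of 164 tested genes with a mean of 1000 TPM or more, 89 (54.3%) were higher and 12 (7.32%) lower in females. These 89 comprised 68 ribosomal protein genes, 7 translation factors, 6 vitellogenins and 8 others. Among 5123 genes with a mean of 1 to 5 TPM, 159 (3.1%) were higher and 189 (3.69%) lower. Genes at 1 TPM or more numbered 8000 ± 220 in females, against 9634 ± 459 in males (SD, n = 3 per sex, exact permutation p = 0.1). After the trimmed-mean scaling this difference turned to 31 more in females (exact permutation p = 0.7).

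The same contrast was fitted in the BPAF-exposed fish, which share no library with the controls. There 366 genes (3.99%) were called, 233 higher (2.54%) and 133 lower (1.45%). Of the 395 genes higher in control females, 392 (99.2%) had a positive difference in exposed fish and 182 (46.1%) were called higher, against 49.4% of all tested genes positive. Of the 465 lower genes, 451 (97.0%) had a negative difference and 69 (14.8%) were called lower, against 50.5% of all tested genes negative. No gene was called in opposite directions. In the 12-library limma fit, the interaction of sex and treatment called 0 of 9171 genes, with 242 (2.64%) at an unadjusted p under 0.05.

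All 7 vitellogenin genes were higher in females, against 4.31% of all tested genes called higher. The most abundant, vtg1, stood at 142423, 124915 and 146342 TPM in females 1 to 3, against 12.7, 48.6 and 5.92 TPM in males 1 to 3. For vtg2 the values were 53856, 53738 and 53988 TPM in females, against 5.4, 21.6 and 3.85 TPM in males. The lowest female exceeded the highest male for both, as for 4.82% of all tested genes in deposited TPM and 15.3% in scaled TPM. The log2 difference was 13.64 ± 0.60 for vtg1 (SE, limma adjusted p = 2.52e-05) and 13.18 ± 0.51 for vtg2 (adjusted p = 1.61e-05). The other 5 genes had log2 differences between 10.33 (vtg5) and 12.79 (vtg4). Of these, vtg3 was the least abundant, at 1049, 1618 and 1305 TPM in females, against 0.13, 0.59 and 0.09 TPM in males. Vitellogenin copies share reads, so the split between them is uncertain. CABZ01042594.1 followed the same pattern, at 24832, 27143 and 19002 TPM in females, against 2.33, 10.4 and 1.03 TPM in males (log2 difference 12.997 ± 0.552, adjusted p = 2.26e-05).

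Of the 6 tested estrogen signalling and response genes, 2 were higher and 1 was lower, against 4.31% and 5.07% of all tested genes. The other 3 did not pass. The estrogen receptor gene esr1, which carries the estrogen signal to its target genes in the liver, was at 21.3, 26.6 and 27.1 TPM in females, against 0.55, 0.6 and 0.19 TPM in males. Every female was far above every male (log2 difference 4.59 ± 0.22, adjusted p = 4.51e-05). As an estrogen gene esr1 was named whatever its result, but it was also named by smallest p, a rule that required no overlap. The aspartic protease gene nots (nothepsin), known from female fish liver, was at 1567, 2019 and 840 TPM in females, against 0.37, 1.13 and 1.17 TPM in males (10.00 ± 0.41, adjusted p = 1.88e-05). In the other direction, greb1, a cofactor of the estrogen receptor in human breast cells, was at 0.47, 0.33 and 0.88 TPM in females, against 5.2, 2.92 and 8.8 TPM in males (-1.63 ± 0.39, adjusted p = 0.044). This call was lost with any 1 female left out and in the 12-library limma fit (adjusted p = 0.0649), and the gene fell below the filter with any 1 male left out. The second estrogen receptor gene esr2b overlapped between the sexes, at 19.99, 12.74 and 15 TPM in females, against 23.14, 14.96 and 6.82 TPM in males (0.82 ± 0.38, adjusted p = 0.194). The lysosomal protease gene ctsd and the endoplasmic reticulum chaperone gene pdia4 did not pass either, with adjusted p of 0.299 and 0.685.

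Beside the yolk genes, several genes were at high levels in females and near 0 in males. The secretory pathway kinase-like gene fam20cl was at 185, 176 and 153 TPM in females and was listed at 0 in all 3 males (adjusted p = 8.8e-06). The gene deposited as cyp2k6, a cytochrome P450 that oxidises small molecules (ENSDARG00000098995), was at 117, 114 and 107 TPM in females, against 0.05, 0.13 and 0.32 TPM in males (6.97 ± 0.24, adjusted p = 1.04e-05). The endoplasmic reticulum membrane gene rtn1a was at 222, 313 and 191 TPM in females, against 1.62, 1.37 and 0.72 TPM in males (7.26 ± 0.29, adjusted p = 1.68e-05). None of these 3 genes overlapped between the sexes, but the rule that named genes by smallest p required this. The gene deposited as IYD, named for iodotyrosine deiodinase, was at 38.7, 36.4 and 39.6 TPM in females, against 0.11, 0.05 and 0.04 TPM in males (5.54 ± 0.21, adjusted p = 1.61e-05). The RNA-binding protein gene raly was lower in level, at 5.49, 6.82 and 9.4 TPM in females, against 0.27, 0.26 and 0.22 TPM in males (3.04 ± 0.22, adjusted p = 0.000522).

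On the male side, the P450 gene cyp2k22 had the largest difference among the genes named by rule. It was at 0, 0.26 and 0.23 TPM in females, against 221, 362 and 110 TPM in males (-7.12 ± 0.38, adjusted p = 8.85e-05). A second identifier deposited as cyp2k6 (ENSDARG00000009874), which the gene name table calls cyp2k31, was also lower in females, at 0, 0.1 and 0 TPM, against 5.5, 16.6 and 7.24 TPM in males (-2.95 ± 0.36, adjusted p = 0.00705). The cytochrome P450 2K genes thus held members with opposite sex differences. The extracellular matrix gene tnr was listed at 0 in all 3 females and at 40.4, 61.1 and 23.8 TPM in males (adjusted p = 0.000165). The phosphodiesterase-like gene smpdl3a was at 0.59, 0.81 and 1.16 TPM in females, against 44.97, 93.44 and 138 TPM in males (-5.05 ± 0.48, adjusted p = 0.00296). Females were below all males for each of these genes, as for 43.4% of all tested genes in deposited TPM. The rule that named genes by smallest p also required this. The amino acid transporter gene slc38a3a was at 0.1, 0.02 and 0.02 TPM in females, against 8.14, 6.44 and 4.91 TPM in males (-2.52 ± 0.19, adjusted p = 0.00057). The glycerol channel gene aqp7 was at 0.16, 0.12 and 0.09 TPM in females, against 8.67, 12.7 and 5.16 TPM in males (-2.72 ± 0.26, adjusted p = 0.00299). Chosen after their values were seen, FO704772.1 and tuba7l also had large differences. The ribosomal RNA copy FO704772.1 was at 0, 0 and 0.07 TPM in females, against 122.7, 772 and 6080 TPM in males, and the tubulin gene tuba7l was at 0.05, 0.05 and 0 TPM in females, against 55.1, 266 and 22.0 TPM in males.

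**Figure D3:**
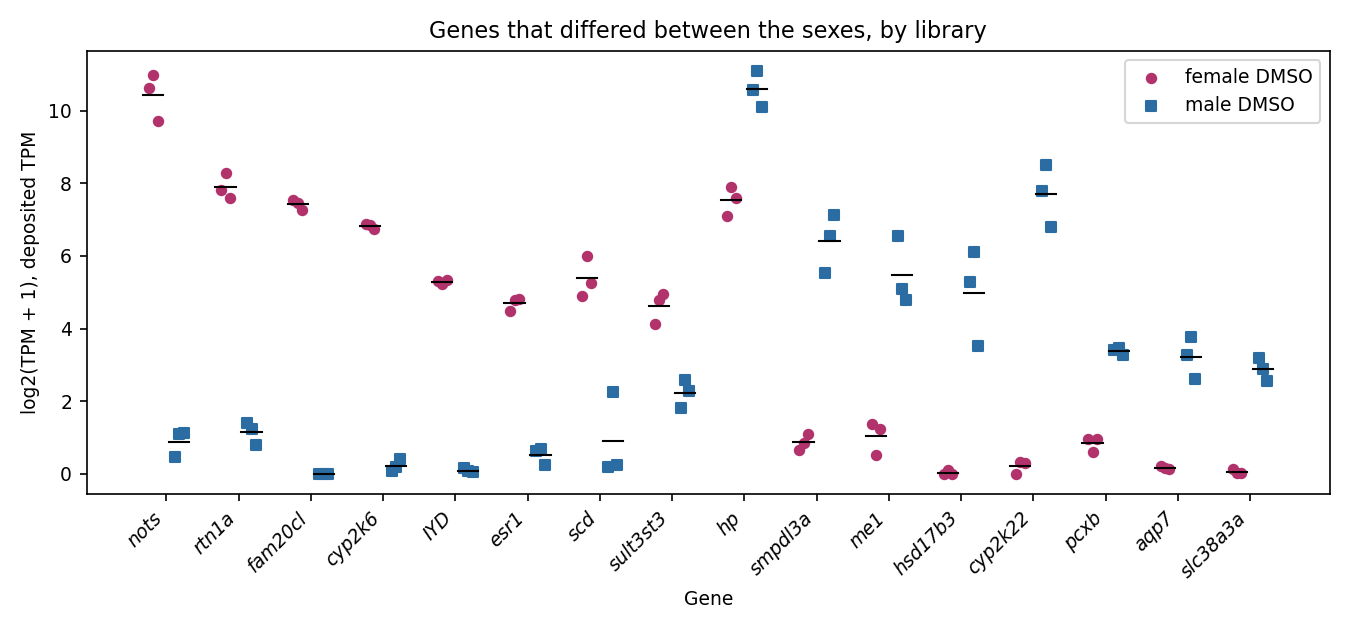
Log2(TPM + 1) of 16 genes in each control library, females (circles) left of males (squares), with bars at the group means of the log values. No gene shown overlaps between the sexes, which the rule for genes named by smallest p required. The first 8 are higher in females, the last 8 lower.

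Of 12 tested sex steroid genes, 1 was higher, 2 were lower and 9 did not pass, against 4.31% and 5.07% of all tested genes. With TPM as deposited 6 were lower, against 25.6% of all tested genes. With any 1 library left out none was called higher, and without male 3 none was called lower. However, ar fell below the filter with any 1 female left out, and hsd17b3 with any 1 male left out, so they were not tested there. Of the alternatives that tested them, hsd17b3 passed in 17 of 17 and ar in 10 of 16. The gene hsd17b3, whose mammalian product makes testosterone, was at 0, 0.07 and 0 TPM in females, against 37.9, 67.6 and 10.5 TPM in males (-4.61 ± 0.52, adjusted p = 0.00534). The gene hsd11b2, whose product inactivates cortisol and makes 11-ketotestosterone in fish, was at 4.95, 0.99 and 1.97 TPM in females, against 32.3, 21.6 and 14.0 TPM in males (-2.23 ± 0.47, adjusted p = 0.0301). For both, every female was below every male, as for 43.4% of all tested genes in deposited TPM. The androgen receptor gene ar was higher in females, at 2.16, 1.12 and 4.1 TPM, against 0.69, 0.25 and 0.19 TPM in males (1.57 ± 0.33, adjusted p = 0.0298).

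The protein-making machinery formed the broadest group on the female side. Of 83 tested cytosolic ribosomal protein genes, 72 were higher, against 4.31% of all tested genes, and none lower. Their median log2 difference was 1.55, against -0.09 over all tested genes. The count was 40 with quantile normalization, against 4.23% of all tested genes, and 60 with TPM as deposited, against 3.02%. It was 6 without female 1, where 47 of 8907 genes were higher. The most abundant of the list, rps2, a small-subunit protein gene, was at 15379, 11285 and 12355 TPM in females, against 5181, 5474 and 7005 TPM in males (1.80 ± 0.29, adjusted p = 0.0146). The large-subunit gene rpl35 was at 5261, 3760 and 4841 TPM in females, against 1483, 1635 and 1338 TPM in males (2.28 ± 0.24, adjusted p = 0.00426). Neither overlapped. The 11 that did not pass included rplp2, with a log2 difference of 0.44 ± 0.28 (adjusted p = 0.34), and rpl29, with 0.74 ± 0.28 (adjusted p = 0.131). Pseudogene copies of ribosomal protein genes share reads, so single values are uncertain.

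Of 78 translation factor genes, 20 were higher and none lower, against 4.31% of all tested genes higher, with a median log2 difference of 0.56. The elongation factor gene eef1g was at 1513, 1460 and 1828 TPM in females, against 580, 448 and 505 TPM in males (2.302 ± 0.24, adjusted p = 0.00422). The elongation factors eef1b2 and eef2b had log2 differences of 2.32 and 2.03. The count ran from 9 to 30 across scalings, where 277 to 594 of 9171 tested genes were higher. It was 3 without female 1, where 47 of 8907 were higher. Of 36 genes for protein entry into the endoplasmic reticulum and glycosylation, 7 were higher, against 4.31% of all tested genes, and none lower. The channel subunit gene sec61a1 was at 329, 270 and 413 TPM in females, against 150, 77.4 and 87.2 TPM in males (2.37 ± 0.31, adjusted p = 0.00771). The signal sequence receptor genes ssr1, ssr2 and ssr3, which assist that channel, were higher by log2 differences of 1.96, 1.80 and 1.92. The call for ssr1 (limma adjusted p = 0.0491) held in 9 of 20 alternatives. The count of 7 ran from 3 to 10 across these scalings and was 1 without female 1, where 47 of 8907 genes were higher. Of 35 chaperones and stress genes of the endoplasmic reticulum, none passed in either direction by limma, and the median log2 difference was 0.04. Among 16 tested heat shock genes 1 was called higher, against 4.31% of all tested genes. It was the cytosolic chaperone gene hsp90ab1 (2.06 ± 0.42, adjusted p = 0.0282). In that list 10 of 16 differences were positive, with a median of 0.49, against -0.09 over all tested genes.

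**Figure D4:**
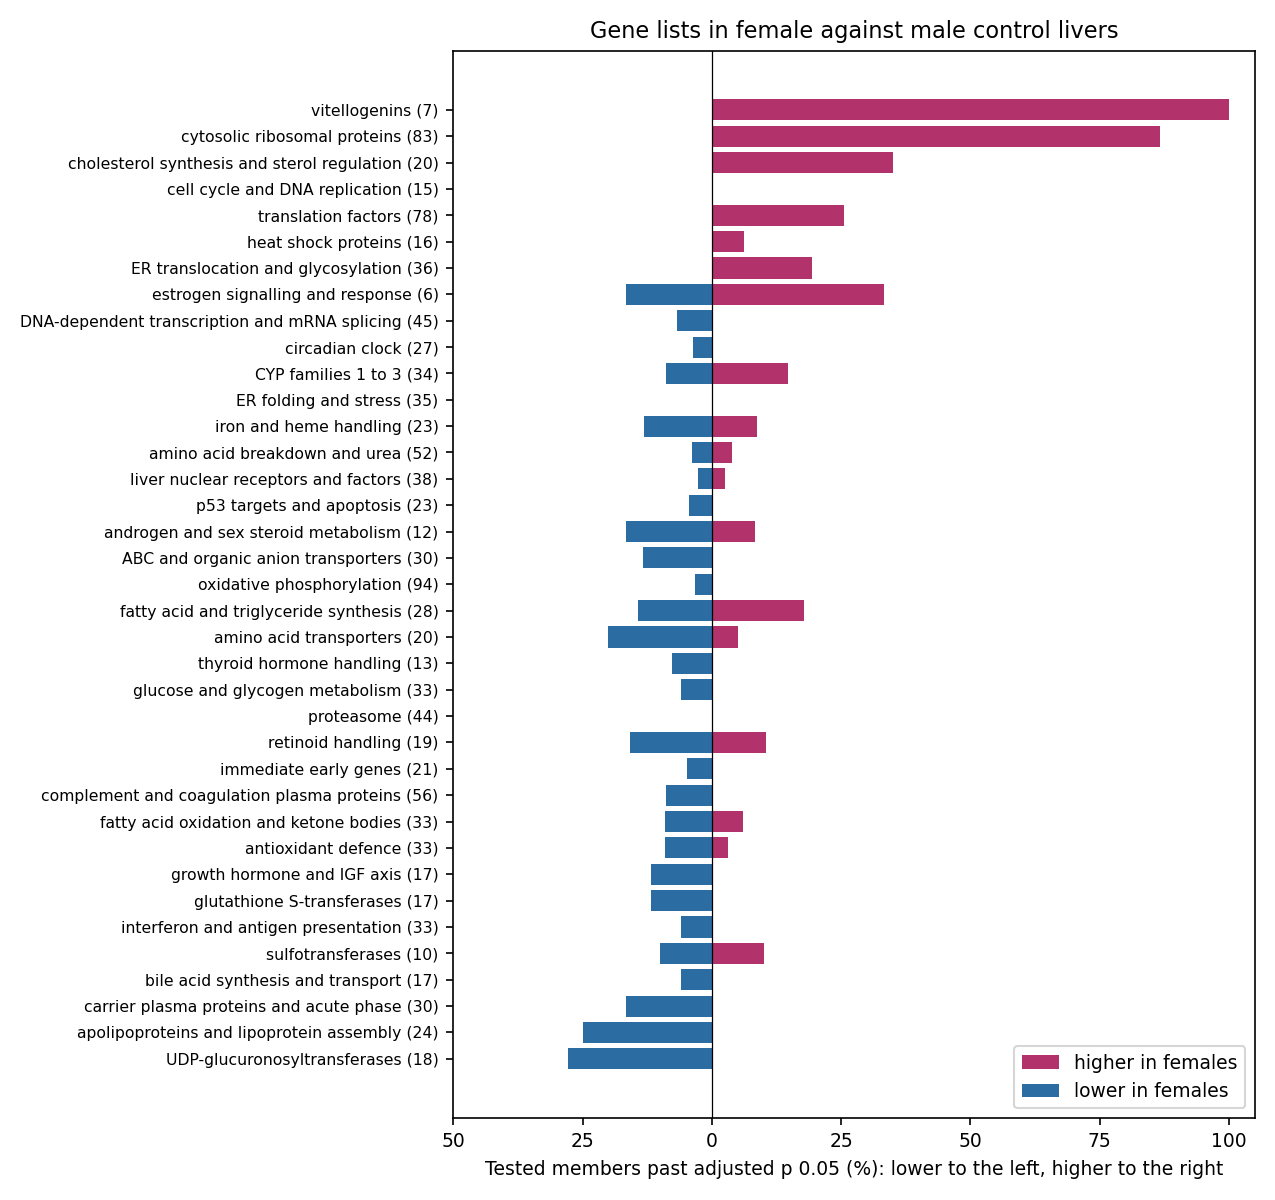
Share of tested members (%) of each gene list with an adjusted p under 0.05, higher in females to the right and lower to the left, with the number tested in brackets and lists ordered by median log2 difference. Of the ribosomal protein genes 72 of 83 were higher, against 4.31% of all tested genes. Of the UDP-glucuronosyltransferases 5 of 18 were lower, against 5.07%.

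Of 20 tested genes of cholesterol synthesis and its regulation, 7 were higher, none was lower and 13 did not pass, against 4.31% of all tested genes higher, and the median log2 difference was 0.94. The count of higher genes ran from 3 (TPM as deposited) to 8 across scalings, where 277 to 594 of 9171 tested genes were higher. It ran from 2 to 5 with 1 library left out, with 3 without female 1 and 2 without male 3. The gene hmgcra, for the rate-limiting reductase of the pathway, was at 6.07, 10.97 and 7.74 TPM in females, against 2.69, 0.85 and 0.38 TPM in males (2.57 ± 0.34, adjusted p = 0.00837). The sterol sensor partner insig1 was at 11.2, 19.1 and 50.2 TPM in females, against 2.78, 4.08 and 2.14 TPM in males (3.12 ± 0.47, adjusted p = 0.0129). All females exceeded all males for both. The enzymes cyp51 and hmgcs1 had log2 differences of 2.02 and 1.63. In the 12-library limma fit cyp51 did not pass (adjusted p = 0.0585). The gene hmgcs1 overlapped between the sexes, at 3.18 TPM in female 3 and 3.38 TPM in male 1. In exposed fish 1 gene of this list was called higher, against 2.54% of all tested genes. The low-density lipoprotein receptor gene ldlra, which takes cholesterol up, did not pass (-1.33, adjusted p = 0.0771).

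Of 28 tested fatty acid and triglyceride genes, most of them for synthesis, 5 were higher and 4 lower, against 4.31% and 5.07% of all tested genes. Without female 1 these counts were 1 and 2. With TPM as deposited they were 4 and 10, against 3.02% and 25.6% of all tested genes. In exposed fish they were 0 and 3, against 2.54% and 1.45% of all tested genes. The desaturase gene scd, which makes monounsaturated fatty acids, was at 28.9, 62.6 and 37.4 TPM in females, against 0.13, 3.78 and 0.19 TPM in males (4.93 ± 0.53, adjusted p = 0.00426). The desaturase gene fads2, which acts on polyunsaturated fatty acids, was at 1064, 1127 and 1160 TPM in females, against 976, 719 and 302 TPM in males (1.56 ± 0.35, adjusted p = 0.0365). Every female exceeded every male for both desaturases. The call for fads2 held under 1 of 4 other scalings, with an adjusted p of 0.126 for TPM as deposited and 0.124 with quantile normalization. The regulator srebf1 rose by 1.67 ± 0.34 (adjusted p = 0.0285). The malic enzyme gene me1, a source of NADPH, was at 1.59, 0.43 and 1.34 TPM in females, against 93.1, 32.7 and 26.4 TPM in males (-3.93 ± 0.45, adjusted p = 0.0057). The gene dgat1a, for an enzyme that makes triglyceride, fell by 1.74 on the log2 scale. The list also holds mgll and pnpla2, for lipases that break glycerides down, which fell by 1.67 and 1.75. Of 33 fatty acid oxidation genes, 2 were higher and 3 lower, against 4.31% and 5.07% of all tested genes. None was called higher with any 1 library left out. The lower count was 14 with TPM as deposited, against 25.6% of all tested genes, and 1 with quantile normalization, against 4.21%. Among the 3 was cpt1ab, which admits fatty acids to mitochondria, at 3.67, 3.12 and 3.28 TPM in females, against 30.9, 19.9 and 14.7 TPM in males (-1.76 ± 0.26, adjusted p = 0.0123).

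Of 24 tested apolipoprotein and lipoprotein assembly genes, none was higher and 6 were lower, against 5.07% of all tested genes, with a median log2 difference of -0.84. The most abundant, apoa2, was at 22612, 28933 and 26523 TPM in females, against 108901, 72073 and 81012 TPM in males (-1.08 ± 0.19, adjusted p = 0.02). The gene apoa4b.2 was at 6.3, 11.4 and 9.96 TPM in females, against 101, 90.8 and 70.9 TPM in males (-2.52 ± 0.26, adjusted p = 0.00426). Neither overlapped, and 43.4% of all tested genes were lower without overlap in deposited TPM. For apoa4b.2 the rule that named genes by smallest p also required this. The genes apom and apoc1 fell by 1.47 and 1.48 on the log2 scale. The count was 15 with TPM as deposited, against 25.6% of all tested genes. It was 1 without female 1, where 83 of 8907 genes were lower. The gene fabp10a, which carries fatty acids in hepatocytes, was at 19715, 21089 and 21998 TPM in females, against 56627, 77840 and 64467 TPM in males (-0.996 ± 0.21, adjusted p = 0.0302). In the 12-library limma fit fabp10a did not pass (adjusted p = 0.183), and its call held in 11 of 20 alternatives.

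Of 30 plasma carrier and acute phase genes 5 were lower, as were 5 of 56 complement and coagulation genes, against 5.07% of all tested genes, with none higher in either list. These counts were 13 and 25 with TPM as deposited, against 25.6% of all tested genes, and 9 and 7 with quantile normalization, against 4.21%. Without female 1 they were 2 and 0. Haptoglobin, hp, which binds free hemoglobin, was at 135, 236 and 194 TPM in females, against 1530, 2184 and 1104 TPM in males (-2.41 ± 0.30, adjusted p = 0.00716). The C-reactive protein gene crp1 was at 0.88, 0.17 and 0.51 TPM in females, against 11.45, 14.96 and 8.46 TPM in males (-2.63 ± 0.29, adjusted p = 0.0048). All females lay below all males for both, as for 43.4% of all tested genes in deposited TPM. For crp1 the rule that named genes by smallest p also required this. The copper carrier gene cp fell by 1.06, the complement gene c6 by 1.90 and the antithrombin gene serpinc1 by 1.29 on the log2 scale. Their limma adjusted p were 0.0488, 0.0311 and 0.0391, and their calls held in 6, 12 and 9 of 20 alternatives. The transferrin gene tfa, which carries iron, did not pass, at 9366, 7209 and 13732 TPM in females, against 15790, 27990 and 13905 TPM in males (-0.25 ± 0.32, adjusted p = 0.641).

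Of 34 tested cytochrome P450 genes of families 1 to 3, which oxidise drugs and other small molecules, 5 were higher and 3 lower, against 4.31% and 5.07% of all tested genes. With TPM as deposited 3 were higher and 9 lower, against 3.02% and 25.6% of all tested genes. Without female 1 none of them was called higher, and without male 3 none was called lower. Without female 1, however, cyp2k6 (ENSDARG00000098995) fell below the filter and was not tested. The same held for cyp2k22 and the second cyp2k6 identifier (ENSDARG00000009874) without male 3. Of the alternatives that tested them, cyp2k6 (ENSDARG00000098995) and cyp2k22 passed in 17 of 17 and the second identifier in 16 of 17. The gene cyp3a65, of the main drug-oxidising family, was at 23.7, 31.3 and 12.6 TPM in females, against 152, 107 and 201 TPM in males (-2.11 ± 0.45, adjusted p = 0.0323). The genes cyp2x8, cyp2x12 and cyp2u1 rose by log2 differences of 1.70, 1.59 and 1.80. Of these, cyp2x8 overlapped between the sexes, at 14.27 TPM in female 2 and 16.98 TPM in male 1. In the 12-library limma fit cyp2x12 did not pass (adjusted p = 0.135). Of 18 UDP-glucuronosyltransferase genes, which attach a sugar acid to drugs and steroids, none was higher and 5 were lower, against 5.07% of all tested genes, including ugt5b4 (-1.61) and ugt5g1 (-1.38). The count was 2 with quantile normalization, against 4.21% of all tested genes, and 11 with TPM as deposited, against 25.6%. It was 0 without female 1, where 83 of 8907 genes were lower. The call for ugt5b4 (limma adjusted p = 0.0475) held in 9 of 20 alternatives. Of 10 sulfotransferase genes, 1 was higher and 1 lower, against 4.31% and 5.07% of all tested genes. The gene sult3st3 was higher, at 16.6, 26.8 and 30.2 TPM in females, against 2.5, 4.95 and 3.82 TPM in males (2.98 ± 0.32, adjusted p = 0.00426). The related gene sult1st4 was lower, at 9.06, 9.98 and 8.31 TPM in females, against 45.2, 58.7 and 35.7 TPM in males (-1.59 ± 0.26, adjusted p = 0.0155). Neither sulfotransferase overlapped between the sexes, against 4.82% of all tested genes higher and 43.4% lower without overlap in deposited TPM. In scaled TPM these shares were 15.3% and 19.7%. Of 33 antioxidant genes, 1 was higher and 3 lower, against 4.31% and 5.07% of all tested genes. With TPM as deposited 15 were lower, against 25.6%, and without female 1 none was called in either direction. The gene prdx4 rose by 1.71 on the log2 scale. The quinone reductase gene nqo1 fell by 2.46, gpx4a by 1.56 and the stress regulator nfe2l2a by 1.15. The call for nfe2l2a held in 9 of 20 alternatives.

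The tryptophan dioxygenase gene tdo2b, which opens tryptophan breakdown, was at 7.46, 11.3 and 6.85 TPM in females, against 264, 155 and 55.1 TPM in males (-3.20 ± 0.47, adjusted p = 0.0119). It was 1 of 2 lower members of the 52 amino acid breakdown genes tested, and 2 were higher, shares below those of all tested genes (5.07% and 4.31%). With TPM as deposited 18 of the 52 were lower and none higher, against 25.6% of all tested genes lower. Pyruvate carboxylase b, pcxb, which feeds glucose synthesis, was at 0.93, 0.53 and 0.93 TPM in females, against 9.6, 10.0 and 8.71 TPM in males (-2.10 ± 0.23, adjusted p = 0.00426). Every female was below every male for tdo2b and pcxb, as for 43.4% of all tested genes in deposited TPM. For pcxb the rule that named genes by smallest p also required this. The 2 calls among 17 growth hormone and IGF genes were both lower, against 5.07% of all tested genes. These growth factor binding protein genes, igfbp1a and igfbp5b, fell by 1.68 and 1.17 on the log2 scale. The count was 8 with TPM as deposited, against 25.6% of all tested genes, and 0 without female 1. In the 12-library limma fit igfbp1a did not pass (adjusted p = 0.109). The gene dio3b, whose product inactivates thyroid hormone, was at 0.14, 0 and 0.11 TPM in females, against 9.69, 4.08 and 5.2 TPM in males (-2.38 ± 0.27, adjusted p = 0.00513).

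Cell type markers were examined next. In bulk tissue, fewer cells of a type and less RNA per cell cannot be told apart. The marker sums here are of deposited TPM and are not scaled for the vitellogenin share of females. Hepatocyte markers were high in both sexes, with 4 of 17 lower, against 5.07% of all tested genes, and none higher. They summed to 68468 to 83989 TPM in females and 197453 to 231656 TPM in males. After scaling their median log2 difference was -0.64, against -0.09 over all tested genes. The lower count was 12 with TPM as deposited, against 25.6% of all tested genes. It was 8 with quantile normalization, against 4.21%, and 0 without female 1. Erythrocyte markers were lower in 6 of 11 tested members, against 5.07% of all tested genes. They summed to 802 to 1391 TPM in females and 1802 to 5541 TPM in males. The globin gene hbaa2 was at 11.4, 14.8 and 6.58 TPM in females, against 151, 43.3 and 102 TPM in males (-2.33 ± 0.51, adjusted p = 0.0349). The most abundant erythrocyte marker, hbba1, did not pass (-0.80 ± 0.45, limma adjusted p = 0.277). It was at 789, 806 and 483 TPM in females, against 2873, 1012 and 2185 TPM in males. The globin copies share reads. The erythrocyte count was 3 with quantile normalization, against 4.21% of all tested genes, and 0 without female 1. Of the remaining lists, 3 of 9 stellate cell and fibroblast markers were lower, against 5.07% of all tested genes. That count was 7 with TPM as deposited, against 25.6% of all tested genes. It was 0 without female 1, where 83 of 8907 genes were lower. Lower too were 1 of 6 endothelial, 1 of 5 T and NK cell and 1 of 8 adipocyte markers. Among 23 exocrine pancreas markers 1 was higher, against 4.31% of all tested genes. None of 11 bile duct, 17 macrophage, 5 neutrophil, 2 B cell, 6 endocrine pancreas, 13 intestine, 2 testis and 2 muscle markers passed by limma. Most of the 26 testis, 25 muscle and 10 B cell genes listed were below the filter, so these lists were hardly tested. All 13 intestine differences were negative (median -0.83), as were 10 of 11 for bile duct (median -0.68). For macrophage 14 of 17 were negative, and for endocrine pancreas 3 of 6.

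Of 18 tested markers of ovary and germline, 6 were higher, against 4.31% of all tested genes, with a median log2 difference of 3.24, and levels followed single libraries. The egg coat gene zp3.2 (ENSDARG00000090768) was at 111, 54.6 and 15.4 TPM in females 1, 2 and 3, against 0, 0.07 and 9.09 TPM in males 1, 2 and 3. The oocyte histone gene h1m was at 31.8, 9.6 and 2.6 TPM in females, against 0, 0 and 1.32 TPM in males. Female 1 was highest, female 3 was close to male 3, and males 1 and 2 were at or near 0. The order of female 1 over 2 over 3, with male 3 above the other males, held in 16 of the 18 markers, the exceptions being h1-10 and lhcgr. It held in 312 (3.40%) of all tested genes, in 58 (14.7%) of the 395 higher genes and in 26 of the 49 with a log2 difference of at least 3. The order takes no account of size, so these counts are not counts of genes with the steep fall of the oocyte markers. For example, cyp2k6 (ENSDARG00000098995) met it at 117, 114 and 107 TPM in females, against 0.05, 0.13 and 0.32 TPM in males. The part of ovarian RNA in these 58 was not tested. Over all 9171 tested genes, 277 were higher with TPM as deposited, 300 with vitellogenins left out and 388 with quantile normalization. The marker count under these was 16, 10 and 5. With 1 library left out it was 14 without female 3, 6 without male 3 and 0 without any 1 of the other libraries. With female 1 and male 3 left out and exposed libraries in the fit, vtg1, esr1, nots, fam20cl, cyp2k6 (ENSDARG00000098995), IYD and rtn1a passed. The setting was chosen after seeing the data. It kept females 2 and 3, with zp3.2 at 54.6 and 15.4 TPM, against 0 and 0.07 TPM in males 1 and 2. The setting thus left a sex difference in ovarian markers in place, and the part of ovarian RNA in these genes was not tested.

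**Figure D5:**
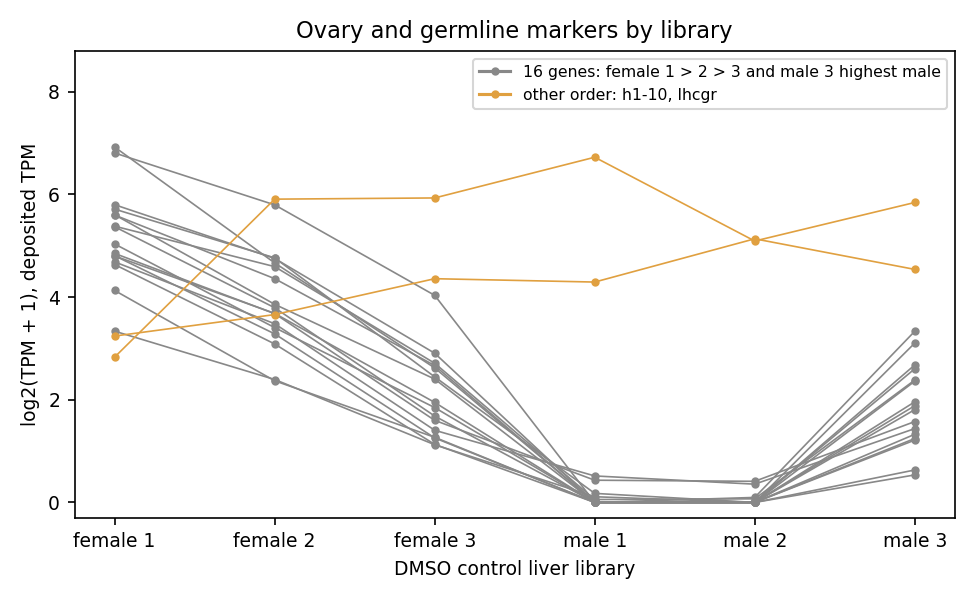
Log2(TPM + 1) of the 18 tested ovary and germline markers in each control library, females left and males right, 1 line per gene. For 16 genes the level is highest in female 1, lower in females 2 and 3, near 0 in males 1 and 2 and above 0 in male 3, and h1-10 and lhcgr differ from this order.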

How the data were processed

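The deposited table holds 1 value per gene and library, taken as TPM made by the authors. The unit was inferred from 2-decimal values summing to between 982195 and 992375 per control library, since the header names none. The submitters' processing notes list the tools HISAT2 2.1.0, RSEM and Cufflinks with no role. For genome build and annotation nothing is given in the sources used here, and sequencing depth is unknown. The authors' group means were not used.

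Control TPM were divided by trimmed-mean-of-log-ratios factors (30% of log ratios and 5% of levels trimmed) and tested as log2(scaled TPM + 1) in limma 3.58.1 (R 4.3.3) using an intensity trend and 4 residual degrees of freedom. The script was tested on simulated data. Genes at 0 are described as listed at 0, with no fold change. Single values were compared with 2-sided exact permutation tests.

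Named genes were up to 14 per direction with the smallest p among called, non-overlapping genes with a log2 difference of at least 1 in size and a descriptive symbol, the 10 per direction with the largest TPM difference, up to 5 called members per direction and the most abundant member of each of 53 gene lists (37 programmes, 16 marker sets), and all vitellogenin and estrogen genes. For genes named by smallest p, the lack of overlap between the sexes was thus fixed by the rule. Members and lists were chosen with earlier results of these data known. Alternatives covered scaling, pseudocount, filter, fit and left-out libraries.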

Additional observations from a re-analysis of the deposited data

How the results depend on the processing

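The 860 calls (395 higher, 465 lower) became 2624 with TPM as deposited (2347 lower), and 160 with no filter on low values (77 higher, 83 lower). Leaving vitellogenins out gave 796 lower. Leaving vitellogenins and ribosomal proteins out, chosen after seeing the data, gave 594 higher and 241 lower. Leaving out female 1 and male 3 with exposed libraries in the fit, also chosen after seeing the data, gave 284 (128 higher, 156 lower). Leaving out 1 library gave 130 to 467 calls, 47 to 243 higher and 53 to 291 lower. The filter then needs 3 of 5 libraries, so genes of 1 sex can drop out. Replicate numbers did not pair the samples (same-number correlations 0.05, 0.06 and -0.17), and the replicate block gave 452 calls (187 higher, 265 lower). Every call shared with an alternative kept its direction. Of 161 named called genes, 35 passed in every alternative that tested them and 113 under all 4 other planned scalings. The scaling without vitellogenins and ribosomal proteins was not among these 4, but the ranges of list counts across scalings include it. The gene mt-atp8, chosen after its values were seen, was called higher in females and turned to -0.14 with quantile normalization. The vitellogenin share difference stayed between 22.7 and 23.0 percentage points with 1 library left out, and that of genes at 1 TPM between -1897 and -1475, but it turned to 31 after scaling. Uncalled genes also turned. With 1 library left out, tfa ran from -0.455 to 0.0229, pdia4 from -1.94 to 0.36 and mt-co3 from -0.429 to 0.24. With female 1 and male 3 out, pdia4 was 0.27 and mt-co3 0.0831. Without vitellogenins and ribosomal proteins, tfa was 0.028 and mt-co3 0.18, and with quality weights mt-co3 was 0.13. The causes were not tested. TPM keep no depth, so no detection limit was set.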

Other observations

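Other liver programmes held few calls. Members were lower in females in 2 of 17 glutathione S-transferase, 1 of 17 bile acid, 2 of 33 glucose and glycogen, 4 of 30 ABC and organic anion transporter, 3 of 94 oxidative phosphorylation, 2 of 33 interferon and antigen presentation and 3 of 45 transcription and splicing genes, with none higher, against 5.07% of all tested genes lower and 4.31% higher. The same held for 1 of 13 thyroid, 1 of 27 clock, 1 of 23 p53 and apoptosis and 1 of 21 immediate early genes. Amino acid transporters had 1 of 20 higher and 4 lower. Iron and heme genes had 2 of 23 higher and 3 lower, retinoid genes 2 of 19 higher and 3 lower, and liver nuclear receptors and factors 1 of 38 higher and 1 lower. None of 44 proteasome and 15 cell cycle genes passed by limma. With TPM as deposited, 37 of the 94 oxidative phosphorylation and 13 of the 44 proteasome genes were lower, against 25.6% of all tested genes.

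Some genes with a large sex difference in control fish, chosen here after their exposed values were seen, were closer in exposed fish. The interaction called none of them, so no effect of exposure on their sex difference was shown. For smpdl3a, exposed females had 22.0, 13.5 and 4.85 TPM, against 29.95, 80.26 and 16.28 TPM in exposed males (log2 difference -0.47, limma adjusted p = 0.699, interaction adjusted p = 0.736). The matrix gene tnr, listed at 0 in control females, had 0, 16.9 and 9.33 TPM in exposed females, against 46.5, 51.8 and 15.03 TPM in exposed males (interaction adjusted p = 0.999). By contrast, esr1 had 28.4, 30.6 and 23.0 TPM in exposed females, against 0.55, 0.52 and 0.42 TPM in exposed males, and fam20cl was again listed at 0 in all 3 exposed males. The ribosomal RNA copy FO704772.1, present in the 3 control males, was listed at 0 in all 6 exposed libraries.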
